A study of Mus musculus with 2 samples.

Results

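The 3 C/EBP family genes with known parts in fat cell formation, Cebpa, Cebpb and Cebpd, were examined for Ebf1-bound regions in mature 3T3-L1 adipocytes. Each gene was given a fixed interval of the mm9 genome, and a peak belonged to it when its centre lay inside. The intervals were chr7:35855001-35955000 for Cebpa, chr2:167465001-167565000 for Cebpb and chr16:15837001-15938000 for Cebpd. They are 100 kb long for Cebpa and Cebpb and 101 kb long for Cebpd. Of the 34534 peaks in the list, 29 fell in these intervals, 14 at Cebpa, 10 at Cebpb and 5 at Cebpd. This rule uses positions only and no measured value.

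The peaks come from chromatin immunoprecipitation and sequencing, in which DNA fixed to a protein is pulled down with an antibody and read. 3T3-L1 is an established mouse fibroblast line that becomes fat-storing under a hormonal mixture called MDI. Its cells were fixed with 1% formaldehyde 10 days after MDI, and the antibody was against Ebf1. The labels describe 2 libraries, the Ebf1 library and a whole cell extract without antibody, and only the peak list of the Ebf1 library was analysed here. That leaves 1 sample, no replicate and no values of the background. The values that follow therefore carry no error between replicates and no test between conditions. The list gives positions and no gene expression, so the adipocyte state could not be checked against marker genes.

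C/EBP proteins are basic leucine zipper transcription factors that bind DNA as dimers. In fibroblasts given an adipogenic mixture, Cebpb and Cebpd are known to be induced early, and Cebpa follows together with Pparg, the nuclear receptor that drives the fat cell programme. Cebpa protein then stays in mature adipocytes, where it helps to maintain Pparg and the genes of lipid storage. Ebf1 is a helix-loop-helix factor with roles in B cell and fat cell development, and it has been placed upstream of Cebpa and Pparg in earlier work on adipogenesis.

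The promoters of the genes were searched for the letters of the Ebf site, to show whether the sequence at the start of each gene holds them. The 250 bases before the start of Cebpa (chr7:35119043-35119292, + strand) and of Cebpb (chr2:167688665-167688914, + strand) are shown from RefSeq in build GRCm38.p6, whose positions cannot be set against the mm9 peaks. Capitals mark the only match to the relaxed site CCCNNGGG, in which N stands for any base.
Cebpa promoter: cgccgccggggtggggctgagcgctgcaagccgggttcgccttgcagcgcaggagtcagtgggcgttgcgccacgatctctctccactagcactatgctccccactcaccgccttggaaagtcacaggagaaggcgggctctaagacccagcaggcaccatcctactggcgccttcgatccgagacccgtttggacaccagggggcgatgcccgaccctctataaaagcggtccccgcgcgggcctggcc
Cebpb promoter: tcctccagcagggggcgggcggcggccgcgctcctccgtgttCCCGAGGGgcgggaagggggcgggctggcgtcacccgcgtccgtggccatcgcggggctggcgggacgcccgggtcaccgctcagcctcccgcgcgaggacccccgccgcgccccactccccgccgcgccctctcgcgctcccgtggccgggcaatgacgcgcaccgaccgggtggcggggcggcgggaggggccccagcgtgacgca
The full palindromic site, which has a T before and an A after the relaxed one and was searched on both strands, was in neither promoter, and 0.904% of the 32851 promoters of 300 bases in the table held it. The relaxed site, which the full site contains, is also palindromic and was in 13.7% of those promoters. Over the 250 bases before the start these shares were 0.779% and 11.8%. The Cebpb match begins 208 bases before the start and reads CCCGAGGG. The Cebpb promoter shown was 81.6% G or C, and the shares above were not matched for base composition. Cebpa had no match to either site in 300 bases. These searches describe letters in short windows only, and the sequence under the peaks was not analysed here. The promoter of Cebpd was not analysed here.

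At Cebpa, Ebf1 peaks formed a dense run to one side. Of the 14 peaks (exact Poisson 95% interval 7.65 to 23.5, counting error only), 13 lay at higher coordinates than the middle of the interval and 1 at lower coordinates. RefSeq places Cebpa on the + strand of GRCm38.p6, so that side is the one toward which the gene is transcribed. The protein-coding genes next to Cebpa on it are Slc7a10, a neutral amino acid transporter of white adipocytes, and Lrp3, while on the other side Gm45095 is followed by Cebpg, another C/EBP family gene. Which of these genes a peak belongs to cannot be told from the list. Distances are given from the middle of the interval, since no mm9 annotation was used, and the middle need not be the start site.

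No single peak dominated the scores at Cebpa. The deposited score is a whole number whose meaning is not stated, and it serves here only to rank peaks within this list. It ran from 7 to 56 with a median of 24.5, and 11 of the 14 peaks reached the list's median of 13, which 50.6% of all peaks do. Only 1 reached 55, a score that 10.2% of all peaks reach and that is called strong below. The strongest peak carried 15.8% of the summed score of 354.

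The strongest Cebpa peak, chr7:35954126-35954625, scored 56 and was 500 bp wide. It lay 49.4 kb above the middle, so it was the last peak before the edge of the interval. The next, chr7:35929126-35929675, scored 47 and lay 24.4 kb above the middle. The third by score, chr7:35915826-35916300, scored 34 at 11.1 kb. The fourth, chr7:35941901-35942375, scored 30 at 37.1 kb above the middle. The fifth, chr7:35897751-35898175, scored 28 and was the lone peak on the lower side, 7.0 kb from the middle. The other 9 peaks scored 7 to 26. The peak closest to the middle, singled out after its values were seen, was chr7:35906151-35906600, with a score of 24 at 1.38 kb. No peak covered the middle itself, and 2 of the 14 had their centre within 5 kb of it.

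At Cebpb, 1 strong peak stood among peaks that scored 5 to 31. Of the 10 peaks, 6 reached the list's median score of 13, beside 50.6% of all peaks. The 10 peaks (exact Poisson 95% interval 4.80 to 18.4) had a median score of 16 and a summed score of 245, of which the strongest peak alone made up 43.3%. Their positions were more even about the middle, with 4 below it and 6 above. The neighbouring protein-coding genes are Tmem189 on the lower side and Ptpn1, a tyrosine phosphatase that acts on the insulin receptor, on the higher side.

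The strongest Cebpb peak, chr2:167527426-167528050, scored 106, which 3.05% of all peaks matched or exceeded. It was 625 bp wide, the widest of the 29, and lay 12.7 kb above the middle. A weak peak, chr2:167526226-167526425, with a score of 9 stood 1.41 kb from it. Close to the middle were chr2:167511976-167512450, with a score of 31 at 2.8 kb below it, and chr2:167513176-167513450, with a score of 9 at 1.69 kb below it. On the other side of the middle lay chr2:167518151-167518450, with a score of 15, chr2:167519751-167520250, with a score of 21, and chr2:167521701-167522000, with a score of 12. The centres of 4 of the 10 peaks lay within 5 kb of the middle.

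The outer Cebpb peaks were scattered. The peak chr2:167539901-167540150 scored 17 at 25 kb above the middle. The peak chr2:167485451-167485775 scored 20 at 29.4 kb below it. The peak chr2:167467126-167467325, at 47.8 kb below the middle, had a score of 5, the lowest of the 29, and 98.7% of all peaks scored as high or higher.

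At Cebpd, peaks were fewer than at Cebpa and Cebpb, and low in score. The 5 peaks (exact Poisson 95% interval 1.62 to 11.7) had scores of 6, 7, 7, 10 and 18, a sum of 48, and none was strong. With 5 peaks, 0 strong ones still allow a strong share of up to 52.2% (exact Clopper-Pearson 95% interval, counting error only, with peaks taken as independent). Only 1 of the 5 reached the list's median score.

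That peak, chr16:15863376-15863625, scored 18 and lay 24.0 kb below the middle. The others on this side were chr16:15853501-15853725 and chr16:15882201-15882400, with a score of 7 each, and chr16:15881301-15881550, with a score of 6. The only peak above the middle was chr16:15907426-15907675, with a score of 10 at 20.1 kb. None of the 5 had its centre within 5 kb of the middle, and the closest was 5.20 kb away. The neighbouring protein-coding genes are Mzt2 on the lower side and Spidr on the higher side.

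**Figure D1:**
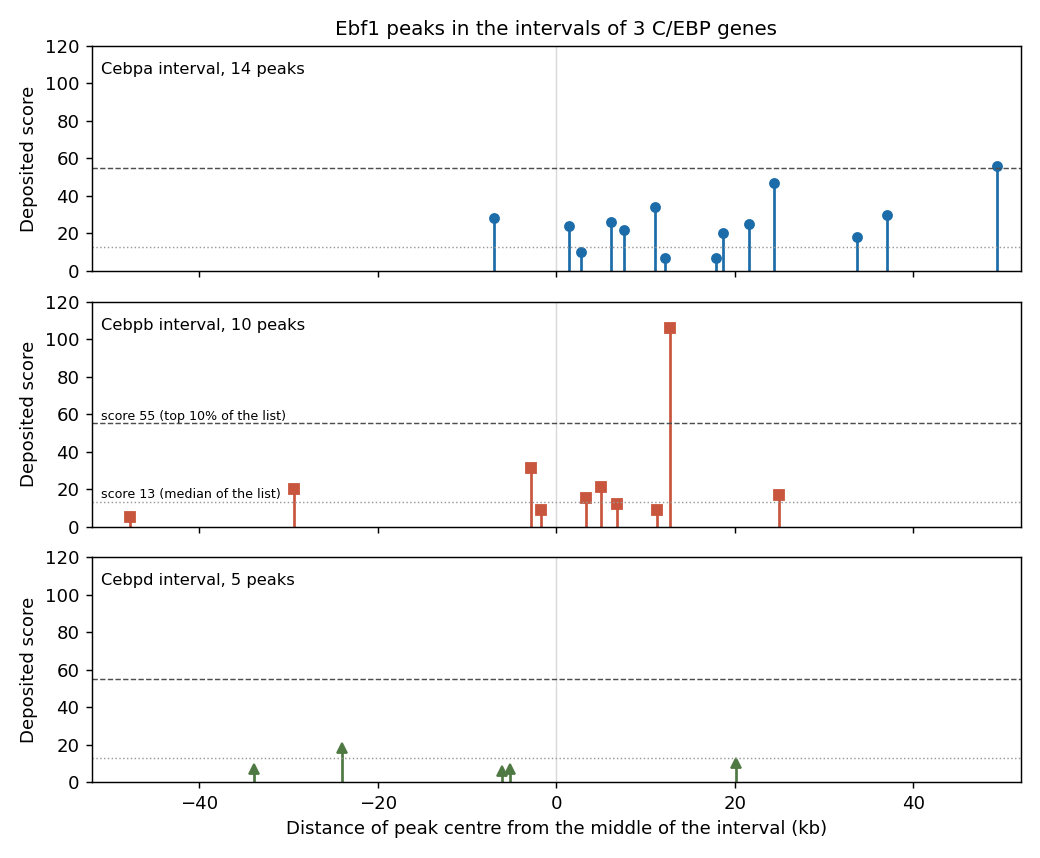
Each stem is 1 Ebf1 peak, at the distance of its centre from the middle of the gene's interval in kb and as high as its deposited score. Dotted and dashed lines mark scores of 13 and 55. The Cebpa peaks run to higher coordinates with scores from 7 to 56, Cebpb has 1 peak at 106, and no Cebpd peak exceeds 18.

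The order of the 3 genes was Cebpa, Cebpb, Cebpd by number of peaks, summed score, median score and covered length, but Cebpb held the strongest single peak. Peaks covered 5550 bp or 5.55% of the Cebpa interval, 3450 bp or 3.45% at Cebpb and 1175 bp or 1.16% at Cebpd. Over chromosomes 1 to 19 and X, peaks covered 0.458% of the sequence between the outermost peaks. The Poisson intervals of the 3 counts overlap each other, those of Cebpa and Cebpd only between 7.65 and 11.7, and the differences between genes were not tested. Poisson intervals assume that peaks fall independently. In this list peaks crowd, with a mean of 1.33 and up to 37 per 100 kb window and 50.2% of windows empty. The overlap of the intervals therefore decides nothing between the genes. The intervals cover at most counting error in 1 library, and the spread between cultures is unknown.

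The shares of strong and weak peaks among the 29 were set beside those of the list. Strong ones numbered 2 of 29, or 6.90% (exact Clopper-Pearson 95% interval 0.846 to 22.8), beside 10.2% of all peaks. Peaks at or above the median score numbered 18 of 29, or 62.1% (42.3 to 79.3), beside 50.6% of all peaks, and both intervals include the share of the list. These and the other Clopper-Pearson intervals treat peaks as independent draws, which neighbouring peaks of 1 library need not be, so they decide nothing.

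Set against the rest of the genome, the Cebpa and Cebpb intervals held many peaks. Chromosomes 1 to 19 and X were divided into 25713 windows of 100 kb, of which 50.2% held no peak, and the mean was 1.33 peaks. Only 73 windows, 0.284%, held 14 or more peaks, the count at Cebpa. On chromosome 7 alone this was 1 of 1493 windows. The windows also cover the stretch around Cebpa, so this window may be at Cebpa itself. At least 10 peaks, the count at Cebpb, were found in 254 windows, 0.988%, and on chromosome 2 in 44 of 1786 windows, 2.46%. At least 5 peaks, the count at Cebpd, were found in 1967 windows, 7.65%, and on chromosome 16 in 101 of 951, 10.6%. Windows are not replicates and were not centred on genes as the intervals were, so these shares rank the intervals and test nothing.

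**Figure D2:**
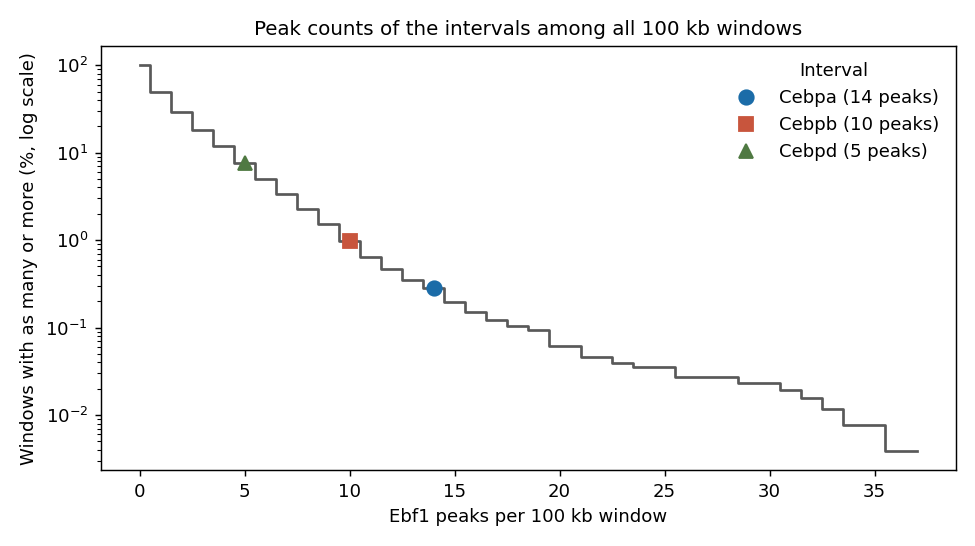
The line gives the percentage of all 100 kb windows (log scale) that hold at least the number of Ebf1 peaks on the horizontal axis, and each symbol is 1 gene's interval. Cebpa at 14 peaks, Cebpb at 10 and Cebpd at 5 correspond to 0.284%, 0.988% and 7.65% of windows.

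By the strongest peak in a window the order changed. A peak of 106 or more was found in 3.61% of windows, one of 56 or more in 10.2% and one of 18 or more in 26.4%, so Cebpb ranked above Cebpa and Cebpd last. These shares are over all windows, whatever their number of peaks. Among the 23 windows that also held 14 peaks, the median summed score was 374, and 52.2% reached the 354 of Cebpa. A peak of 56 or more was in 60.9% of those 23. Among the 89 windows of 10 peaks, the median sum was 257, and 57.3% reached the 245 of Cebpb. A peak of 106 or more was in 29.2% of those 89, and 69.7% held a strong peak. The Cebpd interval was low for its count. Of 680 windows of 5 peaks, 94.6% summed to 48 or more, and the median sum was 113. A peak of 18 or more was in 90.4% of them, and 44.7% held a strong peak.

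In this list wider peaks score higher, so each peak was also set beside all peaks of its own width. Of the 29 peaks, 11 scored above the median of their width, 5 equalled it and 13 scored below it. At Cebpa these numbers were 4, 3 and 7, at Cebpb 5, 1 and 4, and at Cebpd 2, 1 and 2. The Cebpb peak of 106 was matched or exceeded by 22.8% of the 390 peaks that were 625 bp wide, whose median score was 75.5. The Cebpa peak of 56 was matched or exceeded by 16.6% of peaks of its width.

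Some narrow peaks ranked higher on this measure than the strong ones. The Cebpd peak of 18 was reached by only 1.53% of the 2802 peaks that were 250 bp wide, with a median of 9. The Cebpb peak of 17, also 250 bp wide, was reached by 2.28% of them. The Cebpa peak chr7:35923526-35923825, singled out after its values were seen, scored 20 at a width of 300 bp, and 4.22% of peaks of that width scored as high. At the other end, the Cebpb peak of 21 was 500 bp wide, and 98.5% of peaks of that width scored as high or higher.

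**Figure D3:**
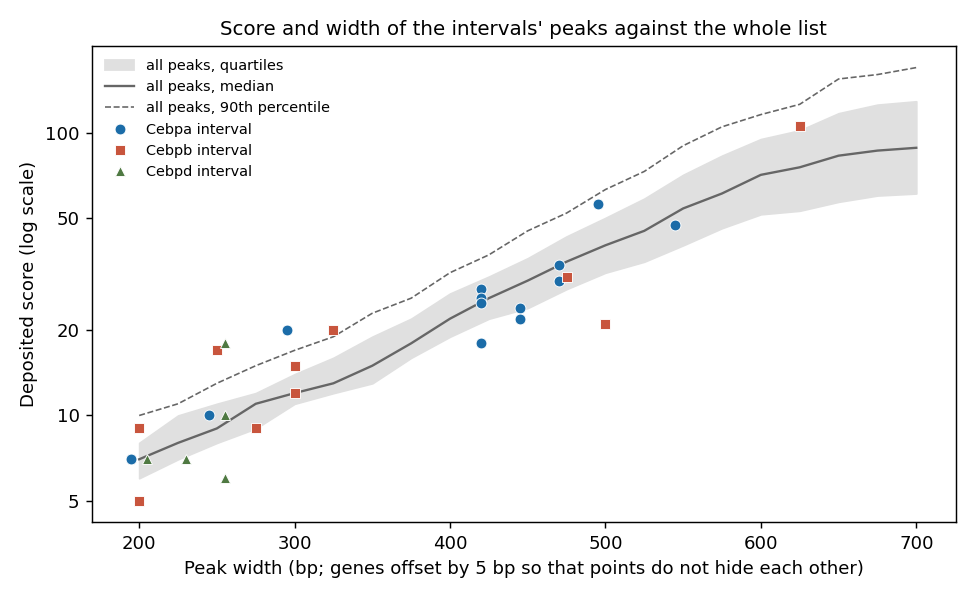
Each symbol is 1 peak of an interval, by width in bp and deposited score (log scale). The grey band and line are the quartiles and the median of all peaks of that width, and the dashed line is their 90th percentile. The 29 peaks spread to both sides of the median line, with 11 above it and 13 below.

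The distance between peaks followed their number. The median distance between neighbouring centres was 3.34 kb at Cebpa (13 distances), 4.47 kb at Cebpb (9 distances) and 13.9 kb at Cebpd (4 distances). A median distance was also taken in each 100 kb window with the same number of peaks. The median of these window values was 3.71 kb, 5.33 kb and 10.7 kb. Of those windows, 34.8% were spaced as closely as Cebpa, 38.2% as closely as Cebpb and 69.3% as closely as Cebpd. Another centre lay within the distance used to join peaks into clusters for 27 of the 29 peaks, 14 of 14 at Cebpa, 9 of 10 at Cebpb and 4 of 5 at Cebpd. Over the whole list, 56.2% of peaks had another centre within that distance. The count of such peaks rises with the number of peaks in an interval. The closest pair was at Cebpa, where the centres of the peak of 20 and a peak of 7 were 0.75 kb apart. At Cebpd, the peaks of 6 and 7 below the middle were 0.875 kb apart.

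Joined at that distance, all 14 Cebpa peaks fell into 1 cluster, which went on past the edge of the interval. With the 3 peaks outside, it held 17 peaks over 64.6 kb from 35897751 to 35962325 on chromosome 7 and summed to 393. As many peaks or more were held by 26 clusters, itself included, or 0.121% of the 21508 clusters and single peaks of the list. At Cebpb the main cluster had 8 peaks over 28.2 kb from 167511976 to 167540150 on chromosome 2, with a summed score of 220. In the list 196 clusters, or 0.911% of clusters and single peaks, were as large or larger. Cebpd had only 2 pairs and a single peak.

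What lay just beyond the edges differed by gene. Above the Cebpa interval the next peaks scored 14 and 15, at 2.11 and 5.01 kb from the edge. Below it the next lay 14 kb away and scored 16. Below the Cebpb interval, a peak at chr2:167459676-167460375 scored 160 at only 4.98 kb from the edge, higher than any peak inside, and the outermost inside peak of 5 joined its cluster. Above, the next scored 38 at 14.6 kb. The nearest peaks outside the Cebpd interval scored 10 and 8, at 10.2 kb above and 27.6 kb below.

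The surroundings of the 3 intervals were compared in bins of the same size. In 11 bins of 100 kb about the middle, the Cebpa bin held 14 peaks and the other 10 held 0 to 8, with a median of 1.5. The Cebpb bin held 10, within a wider stretch whose other bins held 1 to 12, with a median of 4, and the bin next to it on the lower side held more peaks than Cebpb itself, 12. Strong peaks in those other bins numbered 9 at Cebpb, with scores up to 183, and 4 at Cebpa, with scores up to 102. Around Cebpd the other bins held 1 to 5 peaks, with a median of 2.5 and none strong, and 2 of them equalled its 5. A crowded window often exceeds its surroundings in this list. Of 72 windows of at least 14 peaks with 5 windows on either side, 51.4% held more than each of the neighbours.

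Over the whole 1100 kb the order of the genes was another. Cebpb had 59 peaks, a number reached by 0.945% of 2328 windows of that length, Cebpa had 39, reached by 5.58%, and Cebpd had 33, reached by 9.88%. The median such window held 11.

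**Figure D4:**
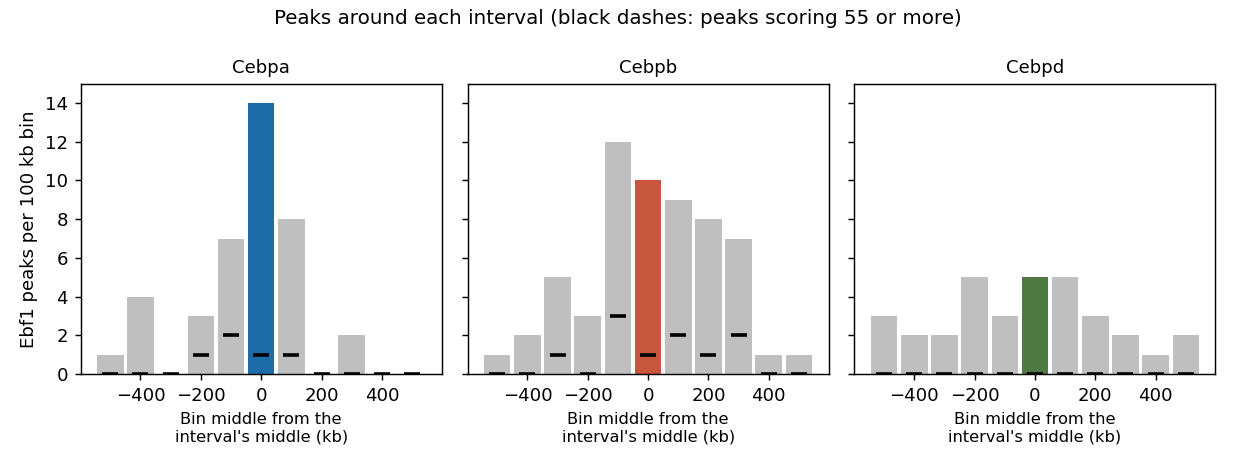
Bars give the number of Ebf1 peaks in 11 bins of 100 kb around the middle of each interval, with the central bin coloured and black dashes for peaks scoring 55 or more. The Cebpa bin at 14 exceeds its neighbours at 0 to 8, the Cebpb bin at 10 lies beside one of 12, and no bin around Cebpd exceeds 5.

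The second whole-number column of the list, whose meaning is also not stated, ranged from 0 to 15 over all peaks. It was above 0 at 20 of the 29 peaks, beside 70.2% of all peaks, and 31.0% were at 0 (exact Clopper-Pearson 95% interval 15.3 to 50.8) beside 29.8%. The strongest Cebpa peak had a value of 6, which 5.16% of peaks of its width reached. The strongest Cebpb peak had a value of 1, below the median of 2 for its width, and 90.5% of those peaks had as much. The strongest Cebpd peak had a value of 2. The highest at Cebpb was 4, at its peak of 20 on the lower side, a value that 7.48% of peaks of its width reached.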

How the data were processed

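The data used were the Ebf1 peak list of 1 library. Per the submitters' processing notes the genome was mm9 and SAMtools is named. The aligner, peak caller, threshold and role of the whole cell extract were not given in the sources used here. Both the deposited score and a second deposited score are whole numbers per peak of unstated meaning, from 3 to 597 and from 0 to 15, and neither was treated as a read count. No depth is recorded. Coordinates follow a 25 bp grid that fits 1-based positions with both ends included.

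The intervals, and the alternatives tried, were chosen with earlier results of these data known. All peaks of an interval were named, or the 5 strongest where it held more than 10. Windows of 100 kb ran from the first to the last peak of each chromosome. Percentages of windows or peaks count those at or above the value. Strong peaks are the top 10% by score (55 or more). Clusters joined centres within 12.5 kb. No test between samples was possible. Window and cluster counting was tested on simulated positions. Promoter sequences and gene order came from RefSeq (GRCm38.p6), whose coordinates are printed only with the promoters and were not set against peaks. Tools were Python 3.11.15 with matplotlib 3.10.9, scipy 1.17.1, pandas 2.3.3 and numpy 2.4.6.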

Additional observations from a re-analysis of the deposited data

How the results depend on the processing

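Of 52 alternative values, 21 counted as unmoved (counts and sums within 1.5 times, shares within their exact 95% interval) and 31 moved. A reversal was not possible, since each value is a count, sum or share without a sign, but the order of the genes could change. Counting any overlap changed no count. In 50 kb intervals the counts were 11, 7 and 4 for Cebpa, Cebpb and Cebpd. They were 24, 21 and 11 in 200 kb and 39, 59 and 31 in 1 Mb, so Cebpb led at the widest. Summed scores in 200 kb were 626, 846 and 116, so Cebpb led by this measure already there. At or above the median score 11, 6 and 1 peaks were left, and 1, 1 and 0 in the top 10%. Windows with as many peaks were 0.067%, 2.46% and 10.6% on the gene's own chromosome. Outside 1 Mb windows of 50 or more peaks they were 0.0907%, 0.651% and 6.96%. The 1 Mb interval of Cebpb itself held 59 peaks, so this setting leaves out stretches as crowded as its own. Among peaks at or above the median score the shares of windows were 0.098%, 1.32% and 32.3%. Joining at 5 kb gave 3, 1 and 1 clusters of at least 2 peaks, and at 25 kb 1, 2 and 1, against 1, 1 and 2. The relaxed motif gave 1 match at Cebpb against 0 for the full site. Beyond the change in length, threshold or windows that each setting makes, the cause was not tested. Leaving out a replicate could not be done with 1 library. No paired analysis was possible because only 1 library has values. With depth unknown, a weak peak and a chance call look alike, which touches Cebpd most, where 4 of 5 peaks scored 10 or less. Low scores also occur outside Cebpd, since only 67.0% of all peaks in the list score 10 or more. At the list's median score of 13, 1 of the 5 Cebpd peaks reached it, beside 50.6% of all peaks.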

Other observations

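Base composition differed between both promoters shown. The 250 bases before the Cebpb start were 81.6% G or C with 41 CpG pairs, a G and C content that 0.746% of the 32851 promoters reach. Those before the Cebpa start were 66.4% G or C with 22 CpG pairs, a content that 14.8% reach. The median promoter had 52.4% and 6 CpG pairs.

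The same search was made over the C/EBP family and factors of adipocyte differentiation, a list of 22 genes of which 16 had a promoter in the RefSeq table, 28 promoters in all. None of the 28 held the full Ebf site in 300 bases, a site that 0.904% of all promoters hold, so a list of this length would seldom show one. The relaxed site CCCNNGGG was in 7 of the 28 promoters, beside 13.7% of all promoters, with 1 promoter each for Cebpb, Ebf3, Egr2, Stat5a, Stat5b, Zfp423 and Srebf1. Cebpg and Ddit3, the other family members in the table, had none. The site TTGCNNAA, a loose form of what C/EBP proteins bind, was in no Cebpa or Cebpb promoter. It was in 1 promoter each of Pparg and Zfp423, 2 of the 28, and 10.8% of all promoters held it on either strand. Whether Ebf1 peaks lie near these genes was not analysed here.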
